A study of Mus musculus with 12 samples.

Results

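The genes described here mark the distal convoluted tubule and the connecting tubule, the last stretches of the nephron before the collecting duct. They were taken by gene symbol, and all 10 were found among the 36186 genes of the deposited count table: Slc12a3, Slc8a1, Calb1, Pvalb, Trpv5, Trpm6, Klk1, S100g, Wnk1 and Wnk4. All 10 were among the 16260 genes that passed the filter on low counts over the 12 libraries.

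The distal convoluted tubule takes sodium chloride back from the urine through the thiazide-sensitive cotransporter encoded by Slc12a3, and the WNK kinases Wnk1 and Wnk4 set the activity of this cotransporter through a kinase cascade. Further along, calcium enters the cell through the channel Trpv5, is buffered inside by calbindins (Calb1, S100g), and leaves on the blood side through the sodium/calcium exchanger Slc8a1, while magnesium enters through the channel Trpm6. Pvalb encodes another calcium-binding protein, parvalbumin, of the early distal convoluted tubule, and Klk1 encodes tissue kallikrein, a protease secreted by connecting tubule cells. Several of these genes are not restricted to the segment: calbindin encoded by Calb1 is also found in the ureteric bud and collecting duct, Slc8a1 in muscle, Pvalb in fast skeletal muscle, and Wnk1 in most tissues.

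Whole kidneys of mouse embryos on a mixed background were taken at E18.5, and 12 RNA libraries were sequenced, 3 in each of 4 groups. The groups were wild type (WT); embryos labelled Hoxa9,10,11-/- with HoxC9,10,11+/- (AkCh); embryos labelled Hoxa9,10,11+/- with HoxC9,10,11-/- (AhCk); and embryos labelled Hoxa9,10,11-/- with HoxC9,10,11-/- (AkCk). The mutations are frameshifts, which need not remove the transcript, so levels of the Hox mRNAs do not check the labels. By the study's text the sequenced double mutants keep 1 or more wild type Hoxa11 alleles, and the labels do not tell which AkCk library carries which. Of the 6 targeted genes, Hoxa10 (by 0.49 on the log2 scale, adjusted p = 0.0270 in edgeR) and Hoxc10 (by 0.78, adjusted p = 0.0127 in edgeR) fell in AkCk against WT. The other 4 did not pass, and 7.40% of all genes were called lower there. Hoxa9 was at 24.3, 24.3 and 26.4 CPM in WT and 26.5, 25.9 and 23.96 CPM in AkCk, and Hoxc9 at 11.4, 11.7 and 15.6 CPM in WT and 11.1, 10.5 and 10.4 CPM in AkCk. Libraries are named by group and animal number, levels are CPM (counts scaled to a common library size after TMM normalization), and values of a group follow the order Wt_30, Wt_37, Wt_55 for WT, AkCh_20, AkCh_31, AkCh_33 for AkCh, AhCk_38, AhCk_110, AhCk_115 for AhCk, and AkCk_24, AkCk_27, AkCk_29 for AkCk. Deposited counts summed to between 28616877 (AkCh_20) and 47067903 (AhCk_110) per library. A floor of 3 counts corresponds to 0.0614 to 0.116 CPM, and the lowest value of any of the 10 genes was 1.12 CPM.

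One library stood apart. In AkCh_20 the first principal component of log2 CPM over all genes, which held 29.98% of the variance, was 100.1, and in the other 11 libraries it lay between -39.3 and 28.7. Its log2 CPM correlated with the other AkCh libraries at r = 0.940 and 0.935, against 0.986 between AkCh_31 and AkCh_33. This library also had the lowest level of 8 summed proximal tubule genes (506 CPM, against 1244 to 3769 CPM elsewhere) and the highest of 7 summed cap mesenchyme genes (489 CPM, against 68.4 to 314 CPM elsewhere). The main results that involve AkCh are therefore given with and without it. The counts, medians and DESeq2 calls without AkCh_20 were chosen after seeing the data. By the labels the 3 AhCk libraries came from 1 sequencing run and the remaining 9 from another, so run and genotype cannot be told apart for AhCk. Xist, transcribed from the inactive X chromosome of females, was also unequally spread, at 0.138 CPM or less in all 3 WT libraries, in AkCh_20, AhCk_38, AhCk_115 and AkCk_24, and between 60.1 and 336 CPM in the other 5. No WT library had high Xist, and AkCh_20 was the only AkCh library with low Xist. Values with Xist as covariate therefore rest in part on AkCh_20 and do not separate Xist level from genotype.

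Per kilobase of exon, S100g was the most abundant of the 10 genes at 344 CPM per kb over the 12 libraries, and its lowest library (213) lay above the highest library of the next gene, Klk1 (106). Below Klk1 (48.7 CPM per kb) came Calb1 (35.2), Wnk1 (24.7), Wnk4 (18.9), Slc12a3 (17.3), Pvalb (9.30), Slc8a1 (7.19), Trpv5 (2.65) and Trpm6 (0.664). Lengths over all annotated exons, chosen after seeing the data, gave 13.4 CPM per kb for Wnk1, below Wnk4 (18.8), and 7.33 for Slc12a3, below Pvalb (9.30). From Klk1 down, with the first lengths, the range over libraries of each gene overlapped that of the gene after it. Over the 12 libraries the widest spread was that of Trpv5, whose highest library was 15.8 times its lowest. Trpm6 (7.53 times) and Slc12a3 (7.09 times) followed. AkCh_20 was the lowest library for each of these. Without it the widest spread was that of Trpm6, from 1.23 to 8.73 CPM. The narrowest over the 12 was that of Slc8a1 (1.90 times), and without AkCh_20 that of Wnk4, from 63.7 to 93.8 CPM.

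**Figure D1:**
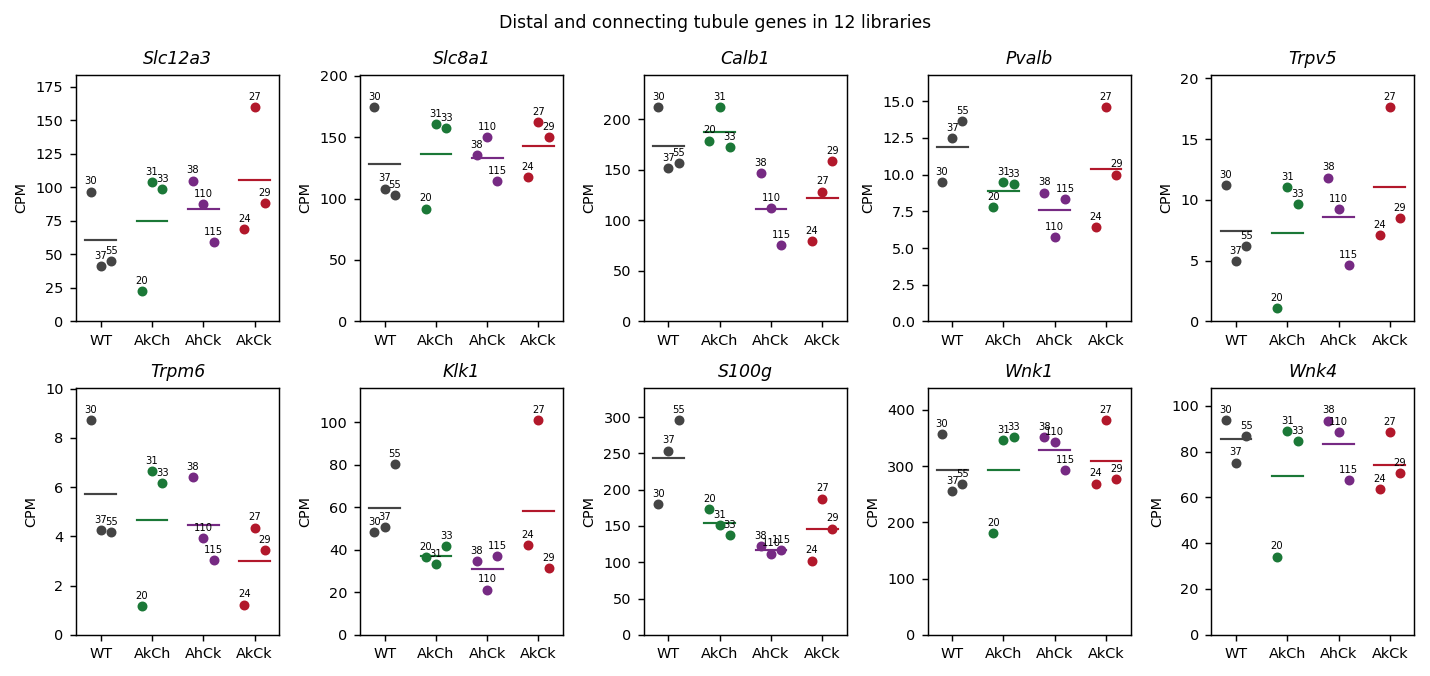
CPM of each of the 10 genes (vertical axes, from 0) in the WT, AkCh, AhCk and AkCk libraries (points, labelled by animal number), with a line at each group's mean. AkCh_20 is the lowest of the 12 libraries for 6 genes, and S100g lies between 112 and 123 CPM in AhCk, below all 3 WT libraries.

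Against WT, 1 of the 10 genes passed an adjusted p of 0.05 in edgeR's quasi-likelihood test, S100g, which was lower in AhCk. In AhCk against WT 2.36% of all genes were called (376 of 15902; 0.836% higher, 1.53% lower). That number fell to 60 without Wt_37, 70 without Wt_55, 63 without AhCk_110 and 99 without AhCk_115, and DESeq2 called 1318 genes (8.29%), 3 of them members (S100g, Klk1 and Pvalb). An unadjusted p below 0.05 was found for 3349 genes (21.1%), 4 of them members. In AkCk against WT 0 of the 10 genes passed in edgeR, where 13.7% of all genes were called (2171 of 15839; 6.31% higher, 7.40% lower), 999 of them higher and 1172 lower. Scaled by library size only, 742 were higher and 1649 lower. With TMM scaling 5131 genes (32.4%), 1 of them a member, had an unadjusted p below 0.05, and DESeq2 called 3380 genes (21.3%), 1 of them a member (S100g). The number of genes called in AkCk against WT was 535 without Wt_37, 633 without Wt_55, 793 without AkCk_24, 1101 without AkCk_27 and 3386 without Wt_30, the last with 2 members (Slc12a3 and S100g).

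In AkCh against WT edgeR called 0 of the 10 genes and 0% of all 15789 genes tested. An unadjusted p below 0.05 was found for 360 genes (2.28%), 2 of them members (Klk1 and S100g), and DESeq2 called 22 genes (0.139%) and 0 members. In AkCk against AkCh edgeR also called 0 of the 10 and 0% of 15764 genes, with an unadjusted p below 0.05 for 1787 genes (11.3%) and 0 members, and DESeq2 called 554 genes (3.51%) and 0 members. Without AkCh_20, edgeR called 8 genes in AkCh against WT (0.0501%; 0.0188% higher, 0.0313% lower) and 687 in AkCk against AkCh (4.30%; 2.43% higher, 1.86% lower), with 0 members in either. At an unadjusted p below 0.05 there were then 2 members against 11.4% of all genes in AkCh against WT, and 0 members against 23.4% in AkCk against AkCh. DESeq2 called 132 genes (0.827%) with 1 member (S100g) in the former and 1767 genes (11.1%) with 0 members in the latter. Xist was at 190 and 253 CPM in the 2 AkCh libraries that remain and at 0.138 CPM or less in WT, so in every AkCh against WT value without AkCh_20, that of the X-linked S100g included, Xist level and genotype cannot be told apart.

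The median log2 fold change of the 10 genes was -0.12 in AkCk, -0.16 in AkCh and -0.19 in AhCk against WT, where the medians of all genes were -0.01, 0.03 and 0.01. In AkCk against AkCh it was 0.11, with -0.01 over all genes. Between 3 and 7 of the 10 estimates were positive in each comparison. Both medians that involve AkCh changed sign without AkCh_20. For AkCh against WT the median became 0.15 with 7 in place of 3 positive estimates, and for AkCk against AkCh -0.046 with 5 in place of 7, where the medians of all genes were -0.011 and 0.0046. The 3 comparisons against WT share the same 3 control libraries. In whole kidneys, fewer cells of a type and less RNA per cell cannot be told apart.

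**Figure D2:**
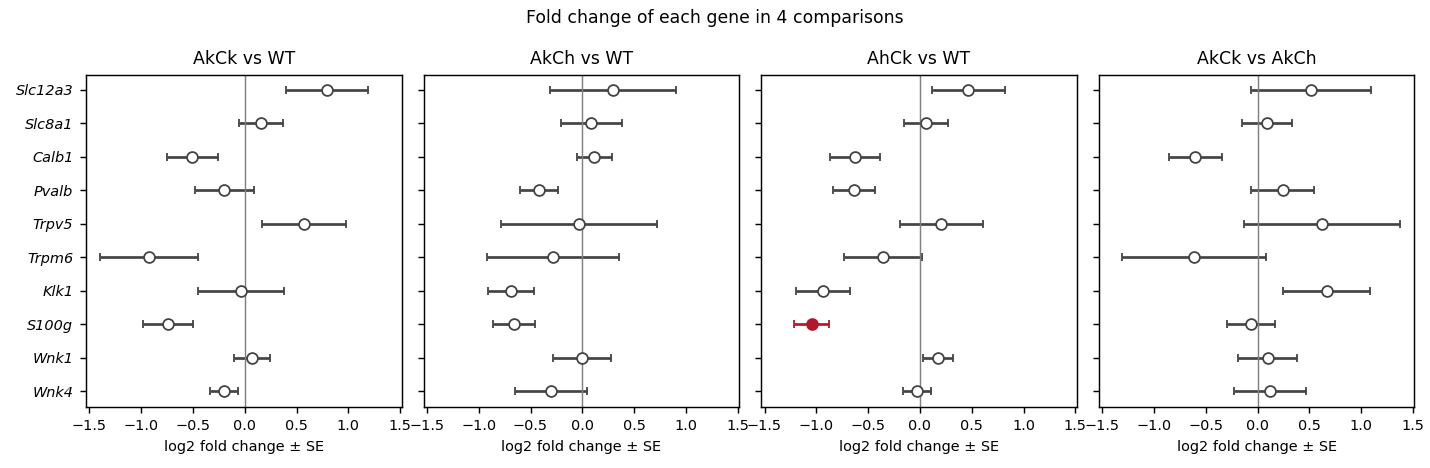
log2 fold change (horizontal axis, point) with its standard error (bar) for each of the 10 genes in 4 comparisons of 3 against 3 libraries. The filled point is the single estimate with an adjusted p below 0.05, S100g in AhCk against WT at -1.05.

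S100g encodes calbindin-D9k, the small calcium buffer of the connecting tubule, and lies on the X chromosome (Entrez 12309; chrX:162961992-162964599, GRCm38.p6). Its level was 180, 254 and 296 CPM in WT. In AhCk it was 123, 112 and 117 CPM. All 3 AhCk libraries were below the lowest WT library, and the fold change was -1.05 ± 0.17 (log2, SE, n = 3 against 3, adjusted p = 0.0294 in edgeR). In AkCh the level was 173, 151 and 137 CPM, also all below WT, with a log2 fold change of -0.66 ± 0.20 that did not pass (adjusted p = 1.00 in edgeR, and -0.76 with adjusted p = 0.431 without AkCh_20). In AkCk it was 102, 188 and 146 CPM, of which 2 lay below WT and AkCk_27 lay inside the WT range (log2 fold change -0.74 ± 0.24, adjusted p = 0.0807 in edgeR). For AkCk against AkCh the log2 fold change was -0.06 ± 0.23 (adjusted p = 0.924 in edgeR), and 0.036 without AkCh_20, 0.14 without AkCk_24 and -0.29 without AkCk_27. The AkCk estimate passed without Wt_30 (-0.92, adjusted p = 0.0312 in edgeR) and in DESeq2 (0.0120). The AhCk call was kept without Wt_30 (adjusted p = 0.00357 in edgeR) and lost without Wt_37 (0.160), Wt_55 (0.0923), AhCk_38 (0.0516), AhCk_110 (0.153) or AhCk_115 (0.102), while the log2 fold change stayed between -1.23 and -0.88. The call was also lost with all 12 libraries in 1 fit (adjusted p = 0.0551 in edgeR), with Xist as covariate (0.0895 in edgeR) and in limma (0.0888), and DESeq2 gave 1.42e-07. It was kept in edgeR with RLE size factors, with scaling by library size only and with no filter beyond 1 count.

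The levels of Klk1 and Pvalb varied with that of S100g. Over the 12 libraries, log2 CPM of Pvalb correlated with S100g at r = 0.81 (Spearman rho 0.83) and that of Klk1 at r = 0.67 (rho 0.62), and Klk1 and Pvalb with each other at r = 0.82 (rho 0.57). Over the 9 libraries of 1 run these 3 values of r were 0.79, 0.57 and 0.73, and without AkCh_20 they were 0.85, 0.69 and 0.82. These are descriptions over 12 libraries that share genotypes and runs.

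Klk1 (Entrez 16612; chr7:44225360-44229622, GRCm38.p6) was at 48.3, 50.7 and 80.3 CPM in WT. AhCk had 34.7, 21.3 and 37.04 CPM, and AkCh had 36.3, 33.2 and 41.7 CPM. All 6 of these lay below the lowest WT library. The estimates were -0.94 ± 0.26 in AhCk (adjusted p = 0.108) and -0.69 ± 0.22 in AkCh (adjusted p = 1.00) on the log2 scale, neither past the threshold in edgeR, and DESeq2 gave an adjusted p of 0.00381 for AhCk. Without AkCh_20 the AkCh value was -0.68 (adjusted p = 0.431 in edgeR), and with another library left out it lay between -0.82 (without Wt_30) and -0.42 (without Wt_55). In AkCk the libraries spread from 31.2 CPM (AkCk_29) through 42.3 (AkCk_24) to 100.9 (AkCk_27), 2 below and 1 above every WT library, and the log2 fold change was -0.04 ± 0.41. That value turned positive without Wt_55 (0.23), AkCk_24 (0.15) or AkCk_29 (0.26) and was -0.70 without AkCk_27, with none past the threshold in edgeR. Klk1 has close paralogs in the same cluster, and reads aligning to more than 1 position had been removed, so its level is uncertain.

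Pvalb (Entrez 19293; chr15:78191112-78206400) had 9.47, 12.5 and 13.6 CPM in WT, and 8.78, 5.73 and 8.34 CPM in AhCk, all below WT. The log2 fold change in AhCk was -0.63 ± 0.20 (adjusted p = 0.144 in edgeR, and 0.0454 in DESeq2). AkCh had 7.76, 9.48 and 9.37 CPM, and AkCk had 6.45, 14.6 and 10.0 CPM. AkCh_31 just reached the lowest WT value, and AkCk spanned the WT range on both sides. The AkCh log2 fold change was -0.42 ± 0.18, or -0.34 without AkCh_20, and that of AkCk was -0.20 ± 0.28, which became 0.053 without AkCk_24, -0.087 without Wt_55, -0.33 without Wt_30 and -0.53 without AkCk_27, none past the threshold in edgeR. Of 9 skeletal muscle genes, which could carry Pvalb signal from attached tissue, the summed level was between 4.43 and 27.03 CPM per library, and Actn3 was the most abundant of them. That sum was 8.17, 8.30 and 15.4 CPM in WT, 20.2, 4.85 and 4.43 CPM in AkCh, 10.7, 11.4 and 11.9 CPM in AhCk, and 19.8, 27.03 and 13.99 CPM in AkCk. AkCk_27 was the highest of the 12 libraries both for this sum and for Pvalb, and the part of skeletal muscle in the Pvalb values was not tested.

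The ranges of S100g, Klk1, Pvalb and Calb1 (4 of 10) did not overlap in AhCk against WT, all lower, and 26.7% of all genes tested did not overlap either. In AkCh against WT, S100g and Klk1 (2 of 10) were lower without overlap, against 8.35% of all genes. In AkCk against WT the count was 0 of 10, against 38.1% of all genes, and in AkCk against AkCh it was 1 of 10 (Calb1), against 23.0%. Without AkCh_20 it was 3 of 10 in AkCh against WT (S100g and Klk1 lower, Slc12a3 higher), against 32.9% of all genes, and 2 of 10 in AkCk against AkCh (Calb1 and Trpm6, lower), against 44.5%.

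Because S100g, Klk1 and Pvalb varied together over the libraries, the 250 bases upstream of their annotated starts are shown, from RefSeq on build GRCm38.p6, 5′ to 3′ on the strand of each gene. Of the 10 genes, 9 matched a promoter window, and Calb1 did not. Capitals mark the letters TTTAT or TTTAC on either strand (ATAAA and GTAAA when read on the printed strand), cores that posterior Hox proteins prefer in binding assays. ATAAA also occurs within TATA boxes.
S100g, chrX:162964600-162964849, minus strand: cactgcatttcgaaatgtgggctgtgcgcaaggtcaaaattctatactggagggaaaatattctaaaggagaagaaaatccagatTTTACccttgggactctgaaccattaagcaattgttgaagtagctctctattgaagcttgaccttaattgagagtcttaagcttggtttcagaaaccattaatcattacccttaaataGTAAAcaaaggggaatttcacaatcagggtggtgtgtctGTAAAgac
Klk1, chr7:44225110-44225359, plus strand: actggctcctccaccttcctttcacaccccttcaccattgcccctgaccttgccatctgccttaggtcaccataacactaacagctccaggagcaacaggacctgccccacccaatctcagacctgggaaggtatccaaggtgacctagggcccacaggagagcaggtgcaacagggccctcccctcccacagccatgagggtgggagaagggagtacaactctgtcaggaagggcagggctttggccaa
Pvalb, chr15:78206401-78206650, minus strand: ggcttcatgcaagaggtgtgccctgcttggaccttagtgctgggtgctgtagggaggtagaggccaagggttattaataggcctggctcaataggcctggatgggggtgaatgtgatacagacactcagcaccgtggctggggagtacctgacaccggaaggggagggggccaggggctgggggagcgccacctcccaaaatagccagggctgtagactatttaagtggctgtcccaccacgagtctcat
The S100g sequence holds 3 matches to TTTAC and 0 to TTTAT, and those of Klk1 and Pvalb hold 0 of either. Of the 9 matched genes 5 hold a match, the others being Slc12a3 and Trpv5 with 2 each and Slc8a1 and Trpm6 with 1 each. A further Pvalb window, at chr15:78204238-78204487 on the minus strand, holds 0. Among 32851 promoter windows cut to the same 250 bases, 28.3% hold TTTAC, 37.3% hold TTTAT, and 51.2% hold at least 1 of them. The S100g sequence is the poorest in G and C of the 3 (38.4%, against 58.8% for Klk1 and 58.4% for Pvalb). Binding of Hox proteins to these sequences, and its part in the levels, was not tested.

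Slc12a3 (Entrez 20497; chr8:94329109-94366222) encodes the sodium chloride cotransporter and is the defining gene of the distal convoluted tubule. Its level was 97.0, 41.1 and 45.2 CPM in WT. In AkCk it was 69.1, 160 and 88.5 CPM. The group means of 105.9 ± 48.0 CPM in AkCk and 61.1 ± 31.2 CPM in WT (SD, n = 3) had overlapping libraries, and the difference did not pass the test (log2 fold change 0.79 ± 0.40, adjusted p = 0.208 in edgeR), and 1 AkCk library was above the highest WT library. Without Wt_30 the estimate passed (log2 fold change 1.30, adjusted p = 0.0352 in edgeR), and without AkCk_27 it was 0.37 (adjusted p = 0.569 in edgeR). With Xist as covariate over all 12 libraries it was 0.16 (adjusted p = 0.910 in edgeR), a value that rests in part on AkCh_20, and WT had no library with high Xist. AhCk had 105, 87.3 and 59.0 CPM (0.47 ± 0.35, adjusted p = 0.490 in edgeR), and the estimate was 0.96 without Wt_30 (adjusted p = 0.0668 in edgeR), 0.25 without Wt_37 (0.821), 0.29 without Wt_55 (0.777) and 0.26 without AhCk_38 (0.742). AkCh_31 and AkCh_33 had 103.7 and 98.9 CPM, and AkCh_20 had 22.6 CPM, the lowest of all 12. With AkCh_20 the log2 fold change against WT was 0.30 ± 0.61 (adjusted p = 1.00 in edgeR), and without it 0.73 (adjusted p = 0.432 in edgeR). For AkCk against AkCh it was 0.52 ± 0.58, or 0.087 without AkCh_20 and 0.82 without AkCh_31. The AkCh value against WT was -0.0055 without AkCh_31, 0.80 without Wt_30 and -0.56 with Xist as covariate.

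Wnk1 and Wnk4, the kinases above Slc12a3, varied less. Wnk1 (Entrez 232341; chr6:119923969-120038695) was at 357, 256 and 268 CPM in WT, at 181, 347 and 351 in AkCh, at 352, 343 and 293 in AhCk, and at 269, 382 and 276 in AkCk. The ranges overlapped in every comparison, and the log2 fold changes against WT were 0.07 ± 0.17 (AkCk), 0.00 ± 0.28 (AkCh) and 0.18 ± 0.14 (AhCk). A kidney-specific isoform of Wnk1 that lacks the kinase domain starts at another promoter, and counts per gene do not separate it. Wnk4 (Entrez 69847; chr11:101260537-101277409) was at 93.8, 75.2 and 86.9 CPM in WT, 34.1, 88.8 and 84.6 in AkCh, 93.5, 88.7 and 67.4 in AhCk, and 63.7, 88.4 and 70.6 in AkCk, in the same order of libraries. For Wnk4 the log2 fold changes were -0.20 ± 0.13, -0.30 ± 0.35 and -0.03 ± 0.14 for AkCk, AkCh and AhCk, and only AkCh_20 lay far from the other 11 libraries. Without AkCh_20 the AkCh value was 0.020 for Wnk4 and 0.24 for Wnk1. The AkCk value of Wnk1 was -0.11 without AkCk_27 and 0.24 without Wt_30, and its AhCk value lay between 0.085 (without Wt_37) and 0.33 (without Wt_30). The AkCk value of Wnk4 lay between -0.35 (without AkCk_27) and -0.10 (without AkCk_24), its AkCh value was -0.52 without AkCh_31, and its AhCk value was 0.10 without AhCk_115. With Xist as covariate over all 12 libraries the values for AkCk, AkCh and AhCk were -0.55, -0.77 and -0.23 for Wnk4 and -0.19, -0.34 and 0.021 for Wnk1, none past the threshold in edgeR.

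Trpv5 (Entrez 194352; chr6:41651661-41681224), the entry channel for calcium, had 11.2, 4.98 and 6.19 CPM in WT and 7.11, 17.7 and 8.52 CPM in AkCk. In AkCh it had 1.12, 11.0 and 9.63 CPM, and in AhCk it had 11.8, 9.25 and 4.63 CPM. Its high and low libraries were those of Slc12a3, with AkCk_27 the highest and AkCh_20 the lowest. No comparison passed: 0.57 ± 0.41 in AkCk (adjusted p = 0.358 in edgeR), 0.21 ± 0.40 in AhCk, and -0.03 ± 0.76 in AkCh, which became 0.47 (adjusted p = 0.508 in edgeR) without AkCh_20. The AkCk estimate was 0.068 without AkCk_27 (adjusted p = 0.919 in edgeR), 0.99 without Wt_30 (0.111), 0.36 without Wt_37 (0.646), and -0.21 with Xist as covariate over all 12 libraries (0.908). The AhCk estimate was -0.10 without AhCk_38 and 0.61 without Wt_30, and the AkCh estimate was -0.46 without AkCh_31, 0.39 without Wt_30 and -1.14 with Xist as covariate.

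Slc8a1 (Entrez 20541; chr17:81373105-81738387), the exit path for calcium, had the smallest ratio of highest to lowest library among the 10 over the 12 libraries. Without AkCh_20 the ratios of Wnk4 and Wnk1 were smaller. WT had 175, 108 and 103 CPM and AkCk had 117, 162 and 150 CPM. AkCh had 91.8, 160 and 157 CPM and AhCk had 135, 150 and 114 CPM. The estimates against WT lay between 0.06 and 0.15 on the log2 scale, none past the threshold in edgeR, and all groups overlapped with WT. Without AkCh_20 the AkCh value was 0.30 (adjusted p = 0.529 in edgeR). Without Wt_30 the AkCk value was 0.44 (adjusted p = 0.0585 in edgeR), that of AkCh 0.37 and that of AhCk 0.34. With other libraries left out the lowest values were 0.016 in AkCk, -0.050 in AkCh and -0.080 in AhCk (all without Wt_55).

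Trpm6 (Entrez 225997; chr19:18730177-18892521), the magnesium channel, had a negative estimate in AkCk where that of Slc12a3 was positive. It was at 8.73, 4.24 and 4.16 CPM in WT, and at 1.23, 4.36 and 3.44 CPM in AkCk. In these AkCk libraries 2 of 3 lay below all WT libraries, although none of the 3 was below the WT range for Slc12a3. The log2 fold change was -0.92 ± 0.47 (adjusted p = 0.215 in edgeR). It was -0.48 without Wt_30 (adjusted p = 0.472 in edgeR), -0.55 without AkCk_24 (0.377) and -1.74 with Xist as covariate over all 12 libraries (0.154). AkCh had 1.16, 6.66 and 6.15 CPM and AhCk had 6.40, 3.93 and 3.05 CPM. Against WT these gave -0.28 ± 0.64 for AkCh, or 0.16 without AkCh_20, and -0.35 ± 0.37 for AhCk, which became 0.079 without Wt_30 and -0.71 without AhCk_38. The AkCh value was also -0.63 without AkCh_31, 0.16 without Wt_30 and -1.29 with Xist as covariate. For AkCk against AkCh it was -0.62 ± 0.70, or -1.07 without AkCh_20 (adjusted p = 0.215 in edgeR) and -0.24 without AkCk_24. Trpm6 had the lowest mean CPM of the 10 genes (4.46).

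Calb1 (Entrez 12307; chr4:15881264-15906709) encodes calbindin-D28k, of distal tubule cells and of the ureteric bud lineage. Its level was 212, 152 and 156 CPM in WT and 179, 212 and 172 CPM in AkCh. It was 147, 112 and 75.7 CPM in AhCk and 79.2, 128 and 159 CPM in AkCk. AhCk lay wholly below WT, and AkCk wholly below AkCh, with AkCk_29 reaching into the WT range. The log2 fold changes were -0.63 ± 0.24 in AhCk (adjusted p = 0.198) and -0.51 ± 0.24 in AkCk (adjusted p = 0.194), with 0.11 ± 0.17 in AkCh (adjusted p = 1.00), and AkCk against AkCh gave -0.60 ± 0.26 (adjusted p = 0.447, and -0.63 with 0.216 without AkCh_20), all from edgeR. With 1 library left out the AkCk value lay between -0.74 (without AkCk_29) and -0.27 (without AkCk_24), at -0.33 without Wt_30, and the AhCk value between -0.89 (without AhCk_38) and -0.41 (without AhCk_115), none past the threshold. AkCk against AkCh lay between -0.84 (without AkCk_29) and -0.36 (without AkCk_24), and AkCh against WT between 0.019 (without AkCh_31) and 0.29 (without Wt_30), with -0.039 for the latter with Xist as covariate. Of the 6 ureteric bud tip genes 5 fell in AkCk against WT (Ret by 1.77, Ros1 by 1.18, Wnt11 by 1.07, Etv4 by 1.02 and Etv5 by 0.60 on the log2 scale), where 7.40% of all genes were called lower, and in AhCk, with 1.53% of all genes called lower, 1 of 6 did (Ret by 0.52). DESeq2 called all 6 in AkCk against WT (21.3% of all genes), Ret in AhCk against WT (8.29%), 0 in AkCh against WT and Ret and Wnt11 in AkCk against AkCh (3.51%). Without AkCh_20 edgeR called 0 of the 6 in both comparisons with AkCh (2 and 4 at an unadjusted p below 0.05, beside 11.4% and 23.4% of all genes). DESeq2 then called Ret in AkCh against WT (0.827% of all genes) and Ret, Wnt11 and Ros1 in AkCk against AkCh (11.1%). The most abundant of them was Etv5, and their summed level was 284, 339 and 325 CPM in WT, 359, 304 and 257 in AkCh, 257, 282 and 298 in AhCk, and 180, 129 and 211 in AkCk, in the order of libraries used for Calb1. Etv4 and Wnt11 had been picked by the study from these libraries, so their direction is not independent evidence. Of the 9 principal cell genes of the collecting duct 0 passed in edgeR in AkCk against WT, beside 13.7% of all genes. Their summed level had group means of 826 CPM in WT, 707 in AkCh, 728 in AhCk and 852 in AkCk. The part of ureteric bud tip or principal cells in the Calb1 values was not tested.

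Over the 12 libraries, the log2 CPM of Slc12a3 correlated with that of Trpv5 (r = 0.95, rho 0.95), Wnk1 (r = 0.94, rho 0.92), Slc8a1 (r = 0.91, rho 0.83), Wnk4 (r = 0.77, rho 0.67) and Trpm6 (r = 0.62, rho 0.69). With Calb1 r was 0.02, with Klk1 0.07, with Pvalb 0.11 and with S100g -0.34. Leaving out AkCh_20 and Wt_37, the 2 libraries farthest from the median of Slc12a3, gave 0.92 for Trpv5, 0.83 for Wnk1, 0.84 for Slc8a1, 0.44 for Wnk4 and 0.42 for Trpm6. Within the 9 libraries of 1 run r was 0.95 for Trpv5, 0.94 for Wnk1 and 0.93 for Slc8a1. Without AkCh_20 alone r was 0.94 for Trpv5, 0.87 for Wnk1 and for Slc8a1, 0.46 for Wnk4 and 0.35 for Trpm6. The r of the last 2 rests in part on that library, while their rho without it was 0.57 and 0.60. The points share genotypes and runs, and AkCh_20 lies at the low end for 6 of the genes.

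**Figure D3:**
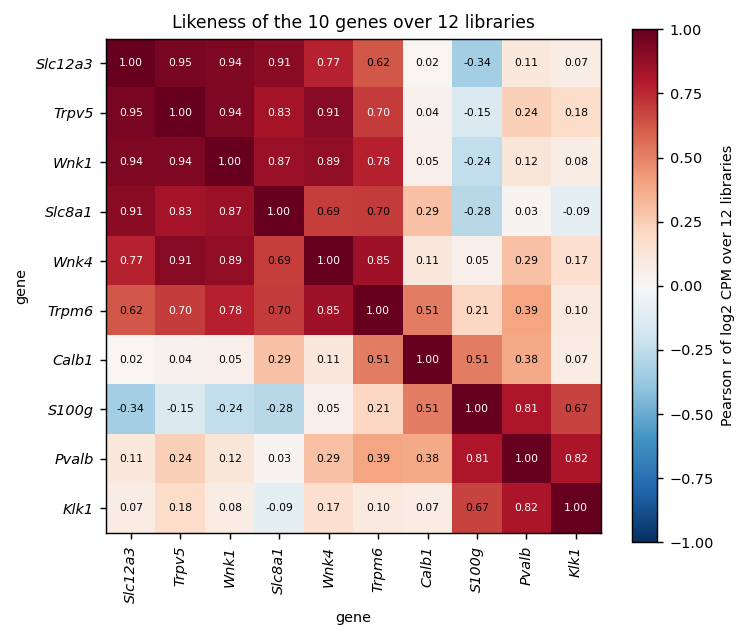
Pearson r of log2 CPM over 12 libraries for each pair of the 10 genes (rows and columns, color from -1 to 1). Slc12a3, Trpv5, Wnk1 and Slc8a1 have r of at least 0.83 with each other, and S100g, Pvalb and Klk1 have r of 0.67 to 0.82.

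Slc12a3 also varied with markers of the proximal tubule, an earlier segment of the nephron. The summed CPM of 8 proximal tubule genes, of which Lrp2, the endocytic receptor megalin, was the most abundant, was 3243, 1594 and 1244 in WT, 506, 2788 and 3722 in AkCh, 3474, 2149 and 1660 in AhCk, and 3157, 3769 and 2492 in AkCk. Within WT, AkCh and AhCk the lowest library for this sum was Wt_55, AkCh_20 and AhCk_115, and for Slc12a3 it was Wt_37, AkCh_20 and AhCk_115. In AkCk the lowest was AkCk_29 for the sum and AkCk_24 for Slc12a3. The log2 of this sum correlated with log2 CPM of Slc12a3 at r = 0.93 (rho 0.90), at r = 0.84 without the 2 farthest libraries and at 0.86 without AkCh_20. For the summed cap mesenchyme genes, markers of nephron progenitors of which Six2 was the most abundant, r was -0.74 (rho -0.74), or -0.56 without the 2 farthest and -0.61 without AkCh_20. Their sum was 217, 283 and 314 CPM in WT, 489, 233 and 209 in AkCh, 187, 247 and 237 in AhCk and 95.6, 68.4 and 180 in AkCk. Neither the makeup of the kidneys nor their stage was tested as a source of the spread in Slc12a3.

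**Figure D4:**
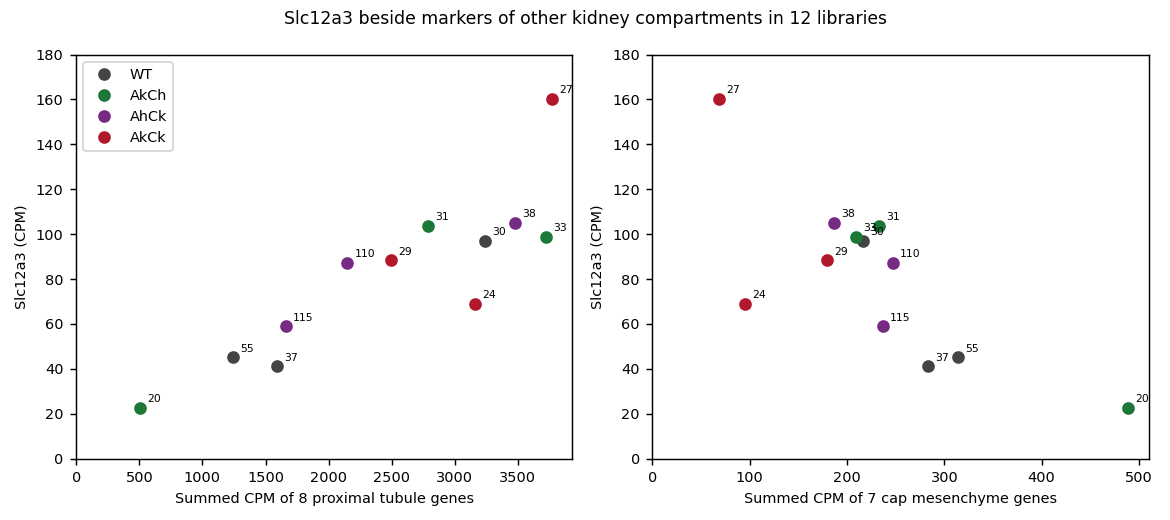
Slc12a3 (vertical axis, CPM) against the summed CPM of 8 proximal tubule genes (left) and of 7 cap mesenchyme genes (right), 1 point per library, labelled by animal number and colored by group. AkCh_20 (22.6 CPM of Slc12a3) and AkCk_27 (160 CPM) lie at opposite ends in both plots.

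The 5 genes outside the 10 whose log2 CPM was most like that of Slc12a3 over the 12 libraries, among 16250 candidates, were Dock8 (r = 0.978), Ripk1 (0.971), Nipal3 (0.970), Spg7 (0.968) and Stard8 (0.967). Dock8 ranged from 15.1 CPM in AkCh_20 to 55.1 CPM in AkCk_27, the same 2 libraries that bound Slc12a3. Without AkCh_20 their r was 0.973, 0.959, 0.941, 0.951 and 0.965, with Dock8 ranked 2 and Nipal3 15. Being chosen for the highest r, they carry no test.

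Of 14 genes of NaCl transport and the aldosterone response, 0 passed in edgeR in any of the 4 comparisons. At an unadjusted p below 0.05 the count was 3 in AkCk, 0 in AkCh and 2 in AhCk against WT and 1 in AkCk against AkCh, where the shares of all genes were 32.4%, 2.28%, 21.1% and 11.3%, and DESeq2 called 2 in AkCk against WT (21.3% of all genes) and 0 elsewhere. The list had median log2 fold changes of 0.07 in AkCk, 0.03 in AkCh and 0.02 in AhCk against WT and 0.13 in AkCk against AkCh. Without AkCh_20 edgeR again called 0 genes of the list in both comparisons with AkCh (2 and 2 at an unadjusted p below 0.05, beside 11.4% and 23.4% of all genes). DESeq2 then called 0 in AkCh against WT (0.827% of all genes) and 2 in AkCk against AkCh (11.1%), and the medians were 0.12 and -0.080. Klhl3, the adaptor that directs WNK kinases to degradation, was at 10.6, 4.94 and 4.78 CPM in WT and 0.502, 10.8 and 10.1 CPM in AkCh, lowest in AkCh_20 as Slc12a3 was. The most abundant gene of the list was Cul3, the scaffold of the same ligase, at 143, 140 and 145 CPM in WT and 148, 128 and 139 CPM in AkCk.

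Of 14 genes of calcium and magnesium handling, 0 passed in edgeR in any comparison. At an unadjusted p below 0.05 the count was 5 in AkCk, 0 in AkCh and 1 in AhCk against WT and 1 in AkCk against AkCh, beside 32.4%, 2.28%, 21.1% and 11.3% of all genes, and DESeq2 called 4 in AkCk against WT (Atp2b1, Casr, Pth1r and Egfr; 21.3% of all genes) and 0 elsewhere. The median log2 fold changes were 0.29 in AkCk, 0.07 in AkCh and 0.11 in AhCk against WT and 0.28 in AkCk against AkCh. Without AkCh_20 they were 0.23 in AkCh against WT and 0.10 in AkCk against AkCh. In edgeR 0 were then called, with 1 and 1 at an unadjusted p below 0.05, and DESeq2 called 0 and 1 (Trpm7). Of all genes, 11.4% and 23.4% had such an unadjusted p, and DESeq2 called 0.827% and 11.1%. Casr, the calcium-sensing receptor, had 26.4, 14.99 and 12.99 CPM in WT and 25.9, 47.03 and 26.6 CPM in AkCk. Vdr, the vitamin D receptor, had 74.6, 51.5 and 48.6 CPM in WT and 74.4, 43.1 and 42.9 CPM in AhCk, 2 of these below the lowest WT library. Its log2 fold change in AhCk against WT was -0.12 ± 0.25 and did not pass (adjusted p = 0.826 in edgeR).

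Among 13 transcription factors of the distal nephron, 3 fell in AkCk against WT, where 7.40% of all genes were called lower, and 0 passed in the other comparisons in edgeR. Elsewhere the count at an unadjusted p below 0.05 was 0 in AkCh and 7 in AhCk against WT and 3 in AkCk against AkCh, beside 2.28%, 21.1% and 11.3% of all genes, and DESeq2 called 3 in AhCk (Tfap2b, Sall3 and Prox1; 8.29% of all genes) and 0 in the rest. The 3 in AkCk were Tfap2a, which fell by 0.97, Gata3, a regulator of the ureteric bud lineage, by 0.65, and Lhx1, of early nephrons and ureteric bud, by 0.55 on the log2 scale (adjusted p = 0.0119, 0.0113 and 0.0330 in edgeR). DESeq2 called 5 in AkCk against WT (21.3% of all genes), these 3 and, with positive estimates, Prox1 (1.24, adjusted p = 0.0523 in edgeR, without overlap) and Esrrg (0.38, adjusted p = 0.110 in edgeR). Tfap2a was at 9.55, 12.4 and 13.6 CPM in WT and 5.43, 6.12 and 6.62 CPM in AkCk, without overlap. Tfap2b, which is required for the distal convoluted tubule, was at 74.2, 62.7 and 73.7 CPM in WT and 86.6, 84.8 and 69.8 CPM in AkCk. The median of the 13 was 0.14 in AkCk, 0.05 in AkCh and 0.16 in AhCk against WT, and 0.03 in AkCk against AkCh. Without AkCh_20 it was 0.092 in AkCh against WT and 0.054 in AkCk against AkCh. In edgeR 0 were then called, with 4 and 4 at an unadjusted p below 0.05, and DESeq2 called 0 and 1 (Lhx1). Over all genes the shares were 11.4% and 23.4% unadjusted, and 0.827% and 11.1% in DESeq2.

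The loop of Henle lies before the distal tubule and the collecting duct after it. In the loop of Henle list 2 of 7 genes rose in AkCk against WT, the tight junction genes Cldn16 (by 0.70 on the log2 scale) and Cldn19 (by 0.38), and 0 fell, where 6.31% of all genes were called higher. DESeq2 also called Slc12a1, the cotransporter of the thick ascending limb (0.62 on the log2 scale, adjusted p = 0.109 in edgeR). Of 9 principal cell genes of the collecting duct 0 passed in edgeR and 2 had an unadjusted p below 0.05. DESeq2 called 2 of them, Avpr2 (-0.47 on the log2 scale in edgeR) and Krt8 (0.29). Over all genes the shares in AkCk against WT were 32.4% at an unadjusted p below 0.05 and 21.3% in DESeq2. Of 8 intercalated cell genes 1 fell, the proton pump subunit Atp6v1g3 (by 0.63), with 7.40% of all genes called lower. In AhCk against WT, Atp6v1g3 (by 0.57) and Atp6v0d2 (by 0.43) fell among the 8 intercalated cell genes, with 1.53% of all genes called lower. From the other 2 lists 0 passed in edgeR (0 loop and 2 principal cell genes at an unadjusted p below 0.05), and DESeq2 also called Aqp4. Beside these, 21.1% of all genes had an unadjusted p below 0.05 and DESeq2 called 8.29%. In AkCh against WT 0 genes of these 3 lists passed in edgeR or DESeq2. In AkCk against AkCh 0 passed in edgeR, while DESeq2 called Cldn16 and Krt8 (3.51% of all genes). Without AkCh_20 edgeR called 0 genes of these 3 lists in both comparisons. At an unadjusted p below 0.05, in the order loop, principal and intercalated, there were 0, 2 and 3 in AkCh against WT (11.4% of all genes). In AkCk against AkCh there were 2, 2 and 1 (23.4% of all genes). DESeq2 called 0 in AkCh against WT (0.827% of all genes) and Cldn16, Krt8 and Slc4a1 in AkCk against AkCh (11.1%).

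Outside the tubule, of 9 stroma genes 8 rose in AkCk against WT, where 6.31% of all genes were called higher and 7.40% lower, and their summed level, led by Col3a1, was 4258, 4306 and 4063 CPM in WT, 5784, 5915 and 4496 in AkCh, 5190, 6560 and 7167 in AhCk, and 11436, 13921 and 12532 in AkCk. Of 7 cap mesenchyme genes 4 fell (Crym, Meox1, Gdnf and Cited1), of 6 smooth muscle genes 4 rose, and of 9 skeletal muscle genes 1 rose (Myh3), while of 8 proximal tubule genes 0 passed in edgeR, at an unadjusted p below 0.05 or in DESeq2. DESeq2 called 9 stroma, 4 cap mesenchyme, 5 smooth muscle, 2 skeletal muscle and 12 nuclear-retained genes there, beside 21.3% of all genes. All 12 transcripts of the nuclear-retained list fell, among them Neat1 (by 2.35 on the log2 scale) and Malat1 (by 1.58), with a summed level of 712, 750 and 885 CPM in WT, 695, 506 and 559 in AkCh, 747, 683 and 839 in AhCk and 361, 368 and 339 in AkCk. Without AkCh_20, in AkCh against WT, DESeq2 called 7 of these 12 and edgeR 0 (11 at an unadjusted p below 0.05), all 12 with negative estimates. Among all genes DESeq2 then called 0.827%, and 11.4% had an unadjusted p below 0.05. The part of these transcripts in the AkCk and AkCh values of the 10 genes was not tested. In AhCk against WT, 3 of 9 stroma genes rose (Col3a1, Postn and Lum; 8 in DESeq2), with 0.836% of all genes called higher. In edgeR 0 genes of the proximal tubule, cap mesenchyme, skeletal muscle, smooth muscle and nuclear-retained lists passed. Of these lists, in that order, 0, 3, 1, 1 and 1 genes had an unadjusted p below 0.05, and DESeq2 called Cited1 and Myh3. Beside these counts, 21.1% of all genes had an unadjusted p below 0.05 and DESeq2 called 8.29%. In AkCh against WT and in AkCk against AkCh 0 genes of any list passed in edgeR. DESeq2 called 1 stroma gene (Lum) in the former, with 0.139% of all genes called. In the latter, with 3.51% of all genes called, it called, among others, 7 stroma and 10 nuclear-retained genes. Without AkCh_20 edgeR called 1 listed gene in AkCh against WT (Actn3, of skeletal muscle; 0.0501% of all genes), and in AkCk against AkCh, with 4.30% of all genes called, it called 6 stroma, 4 smooth muscle, 1 skeletal muscle and 8 nuclear-retained genes. Some of the stroma, cap mesenchyme, nuclear-retained and proximal tubule genes (of the last, Slc3a1 and Slc22a6) had been picked by the study from these libraries, so their direction is not independent evidence. CPM are shares of a total, and the part of the higher stroma share in the values of the 10 genes was not tested.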

How the data were processed

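RNA-seq of 12 E18.5 kidneys was aligned by the authors to mm10 and quantified in Strand NGS, removing reads aligned to more than 1 position. The authors deposited expected counts per gene, used here for all tests, and normalized values on the log2 scale, used only as an alternative. Expected counts were rounded, filtered by filterByExpr (minimum count 10), and scaled by TMM; the 6 libraries of each comparison were fitted by the quasi-likelihood method of edgeR 4.0.16 (R 4.3.3). Benjamini-Hochberg adjustment covered all genes tested, at a threshold of 0.05. Standard errors were derived from the F statistic. The fit was checked on simulated counts with the same dispersion for every gene and no library that stood apart. That check does not cover a library such as AkCh_20. Other settings tried were size factors by RLE, no scaling beyond library size, DESeq2 1.42.0, limma 3.58.1 on the deposited log2 values, no filter, all 12 or 9 libraries in 1 fit, Xist as covariate, and leaving out each library. Exon lengths are from GENCODE M21, and positions and promoters from RefSeq GRCm38.p6. Members and lists were chosen with earlier results of these data known. Genes named were the 10 members, listed genes past a threshold or most abundant, and the 5 most like Slc12a3. Casr, Vdr, Klhl3, Tfap2b and Xist were named after their values were seen. Strand was not given in the sources used here.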

Additional observations from a re-analysis of the deposited data

How the results depend on the processing

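Log2 fold changes of the 10 genes kept their direction and their side of the threshold in 295 results under the settings other than leaving out a library and in 198 with a library left out, while 9 and 35 changed sign, 3 and 2 passed the threshold where they had not, and 3 and 5 no longer passed. All 9 changes of sign outside the left-out libraries came with Xist as covariate: in AkCk against WT Slc8a1 -0.14, Trpv5 -0.21, Klk1 0.012, Wnk1 -0.19. In AkCh against WT the values were Slc12a3 -0.56, Slc8a1 -0.27, Calb1 -0.039. In AhCk against WT the values were Slc8a1 -0.12, Trpv5 -0.15. WT had no library with high Xist, and AkCh_20 was the only AkCh library with low Xist. Values with this covariate therefore do not separate Xist level from genotype. The cause was not tested. With DESeq2, the number of genes called was 3380 in AkCk against WT, 22 in AkCh against WT, 1318 in AhCk against WT and 554 in AkCk against AkCh, and of the 10 genes 1 in AkCk against WT and 3 in AhCk against WT. With all 12 libraries in 1 fit, the number of genes called was 1190 in AkCk against WT, 2 in AkCh against WT, 149 in AhCk against WT and 540 in AkCk against AkCh, and of the 10 genes 0 in AhCk against WT. With Xist as covariate, the number of genes called was 1009 in AkCk against WT, 134 in AhCk against WT and 651 in AkCk against AkCh, and of the 10 genes 0 in AhCk against WT. With limma on the deposited log2 values, the number of genes called was 1215 in AkCk against WT, 1 in AkCh against WT, 158 in AhCk against WT and 1 in AkCk against AkCh, and of the 10 genes 0 in AhCk against WT. With the 9 libraries of 1 run in 1 fit, the number of genes called was 690 in AkCk against WT and 181 in AkCk against AkCh. With no filter beyond 1 count, the number of genes called was 1 in AkCk against AkCh. 

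With 1 library left out, in AkCk against WT 535 to 3386 genes were called and 0 to 2 of the 10. In AkCh against WT 0 to 8 genes were called and 0 of the 10. In AhCk against WT 60 to 549 genes were called and 0 to 1 of the 10. In AkCk against AkCh 0 to 687 genes were called and 0 of the 10. The log2 fold changes that changed sign in AkCk against WT were Pvalb (-0.53 to 0.053), Klk1 (-0.70 to 0.26), Wnk1 (-0.11 to 0.24). The log2 fold changes that changed sign in AkCh against WT were Slc12a3 (-0.0055 to 0.80), Slc8a1 (-0.050 to 0.37), Trpv5 (-0.46 to 0.47), Trpm6 (-0.63 to 0.16), Wnk1 (-0.15 to 0.24), Wnk4 (-0.52 to 0.020). The log2 fold changes that changed sign in AhCk against WT were Slc8a1 (-0.080 to 0.34), Trpv5 (-0.10 to 0.61), Trpm6 (-0.71 to 0.079), Wnk4 (-0.13 to 0.10). The log2 fold changes that changed sign in AkCk against AkCh were Slc8a1 (-0.13 to 0.22), Pvalb (-0.090 to 0.49), S100g (-0.29 to 0.14), Wnk1 (-0.15 to 0.23), Wnk4 (-0.20 to 0.34). The causes were not tested. Chosen after seeing the data, lengths over all annotated exons gave 7.33 CPM per kb for Slc12a3 and 13.4 for Wnk1, in place of 17.3 and 24.7 over protein-coding transcripts. Only 3 libraries a group limit the precision, and counts carry counting error from totals of 28616877 or more per library.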
